A study of Mus musculus with 16 samples.

Results

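The IL-1 family cytokines and receptors described here are 10 of the 27179 genes counted in epidermal cells of aged mice: Il1a, Il1b, Il1f9 (the older symbol of Il36g, which encodes IL-36γ), Il33, Il18, Il1rn, Il1r1, Il1r2, Il1rl2 and Il1rap. They were chosen by name, from their place in the family, and were found in the table by their Entrez gene identifiers. All 10 were present, and all 10 passed the filter on low counts.

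The mice were C57BL/6J, 73 weeks old when treatment began, and the labels name no engineered allele. For 12 weeks, 4 mice received control IgG and 4 received blocking antibodies to both IL-17A and to IL-17F, mixed (the anti-IL-17A/F group), by intraperitoneal injection 3 times a week. The comparison asks how transcript levels in the epidermis of aged animals differed when IL-17A and IL-17F were blocked. The antibodies acted on the whole animal, the epidermal cells were not sorted, and no young or uninjected mice enter these results.

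IL-1 family cytokines are made in large part by barrier cells such as keratinocytes, where several of them are stored and released upon damage. IL-1α and IL-1β signal through the receptor encoded by Il1r1, and IL-36 cytokines through the one encoded by Il1rl2. Both receptors need the accessory chain encoded by Il1rap and pass their signal through MyD88 to NF-κB. The pathway is restrained by a receptor antagonist (Il1rn) and by a decoy receptor that binds IL-1 without signaling (Il1r2). IL-17 is known to act together with IL-1 and IL-36 on keratinocytes in inflamed skin.

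None of the 10 members passed the test at a Benjamini-Hochberg adjusted p below 0.1 by edgeR's quasi-likelihood test, and neither did any of the 16335 genes tested (0%). Adjusted p-values of the members by edgeR were between 0.984 and 0.995. At an unadjusted p below 0.05 edgeR had 658 of all genes (4.03%), of which 257 were lower under anti-IL-17A/F (1.57% of all). Leaving out 1 mouse moved the count of 658 to as many as 1039 (without control mouse 1) and as few as 434 (without anti-IL-17A/F mouse 1). On the 8 mice DESeq2 called 11 genes by its Wald test, 0.0508% of the 21651 genes with an unadjusted p. It called 0 with the thresholds of the study. With those thresholds and batch as a term it called 11 (0.0508%) when the 16 runs entered as separate samples, which counts each mouse more than once. None of these genes was a member. On the 8 mice DESeq2 gave no adjusted p for Il1a and Il1b, so they could not be called there. By edgeR 1 member, Il1f9, was under the unadjusted level, and between 0 and 3 members were when 1 mouse was left out. The count of 3 came without control mouse 1, where the count over all genes was also the largest, at 1039 of 16440.

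Mean levels were lower in the anti-IL-17A/F mice for 9 of the 10 members and higher for 1, Il1rn, where 49.9% of all genes tested had a negative log2 fold change. The median log2 fold change of the members was -0.18, against 8.7e-05 over all genes tested. Leaving out control mouse 3 gave 6 of 10 lower, and scaling by total counts gave 7 of 10. Several marker lists of other cells had the same direction. Means were lower for 9 of 9 tested macrophage and monocyte genes (median -0.47) and 7 of 8 Langerhans and dendritic cell genes (-0.37). They were also lower for 9 of 9 T cell genes (-0.24) and 6 of 6 sebocyte genes (-0.27). Of the immediate-early and heat shock genes, which respond to handling of tissue, 9 of 10 were lower (-0.32). Of the keratinocyte genes, 6 of 7 basal (-0.021) and 5 of 8 suprabasal ones (-0.027) were lower. Higher means were found for 6 of 6 hair shaft genes (0.42), 6 of 6 endothelial genes (0.42), 5 of 5 melanocyte genes (0.30) and 4 of 5 hair follicle stem cell genes (0.39). No marker gene passed the test, and the part of these cells and of handling in the direction of the members was not tested. Values without overlap between the groups were found for 1 member, Il1f9, where 2.42% of all genes had no overlap in either direction, 1% being lower and 1.41% higher under anti-IL-17A/F.

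**Figure D1:**
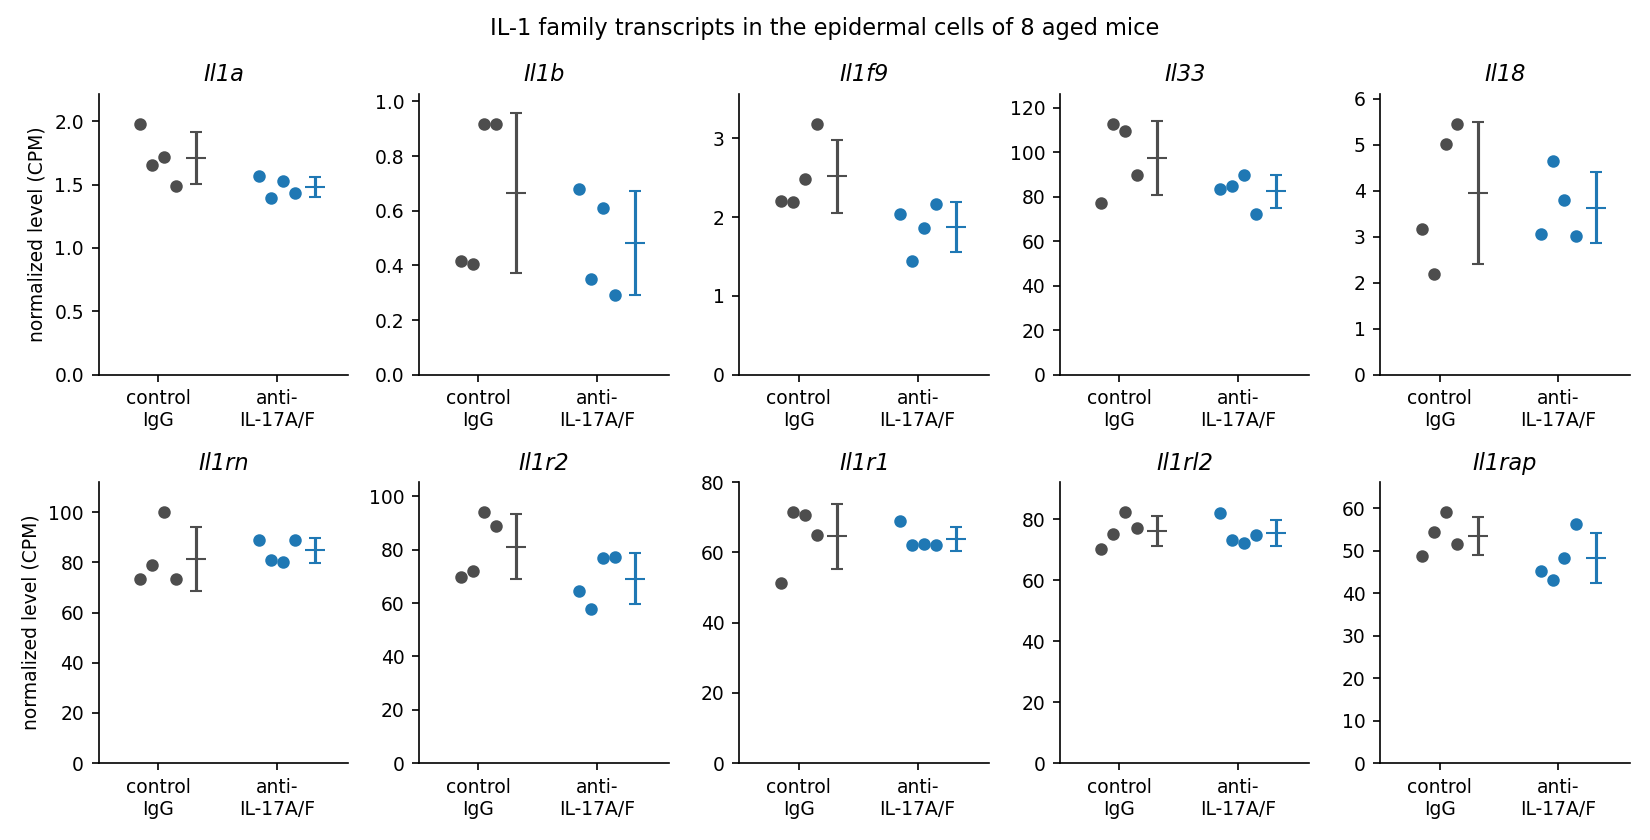
Normalized level of each member in CPM (linear axes starting at 0), with 1 point per mouse in the order of mouse 1 to 4 and the mean ± SD of the 4 mice of each group beside the points. Only the Il1f9 panel has no overlap between the groups, with the lowest control mouse at 2.20 CPM and the highest anti-IL-17A/F mouse at 2.17 CPM.

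The mice had between 42816157 and 53721153 counts each, summed over 2 sequencing runs of the same library. The label of epidermal cells was met by the keratinocyte markers: 7 of 7 basal genes (Krt5 and Krt14 among them) summed to between 20303 and 26640.5 CPM in control mice and between 21372 and 24108 in treated mice, and 8 of 8 suprabasal genes to between 20080.0 and 25256 and between 21709 and 24348. Markers of resident immune cells were also present. Of 8 neutrophil genes 3 were at 0 in every mouse and the sum of all 8 stayed at or below 0.586 CPM. In bulk RNA, fewer cells of a type and less RNA per cell cannot be told apart.

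Levels were set against each other per kilobase of exon, since longer transcripts yield more counts. The decoy receptor Il1r2 had the highest mean over the 8 mice, 53.0 CPM per kilobase, with mice between 40.7 and 66.3. Il33 followed at 34.5 (27.7 to 43.3) and Il1rn at 30.7 (27.1 to 37.0), and the ranges of Il1r2 and Il33 and of Il33 and Il1rn overlapped. Thus a decoy, an alarmin and an antagonist led the order per kilobase. This order depends on the exon lengths, such as 1.419 kb for Il1r2 and 4.041 kb for Il1rl2. The lengths cover all annotated exons and need not match the transcripts expressed. Before division by length the highest means were Il33 (90.0 CPM), Il1rn (83.1), the signaling receptor Il1rl2 (75.9) and Il1r2 (75.2).

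Per kilobase the signaling receptors stood below Il1r2, Il33 and Il1rn. Il1rl2 was at 18.8 CPM per kilobase (17.4 to 20.4), Il1r1 at 10.5 (8.40 to 11.7) and the accessory chain Il1rap at 5.92 (5.005 to 6.88). No 2 of these 3 overlapped. The remaining agonist transcripts came last: Il18 at 3.68 (2.11 to 5.29), Il1f9 at 1.33 (0.875 to 1.93), Il1a at 0.808 (0.707 to 1.00) and Il1b at 0.422 (0.214 to 0.678). Neighbors whose ranges overlapped in this lower part of the order were Il1rap and Il18, and Il1f9 and Il1a.

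**Figure D2:**
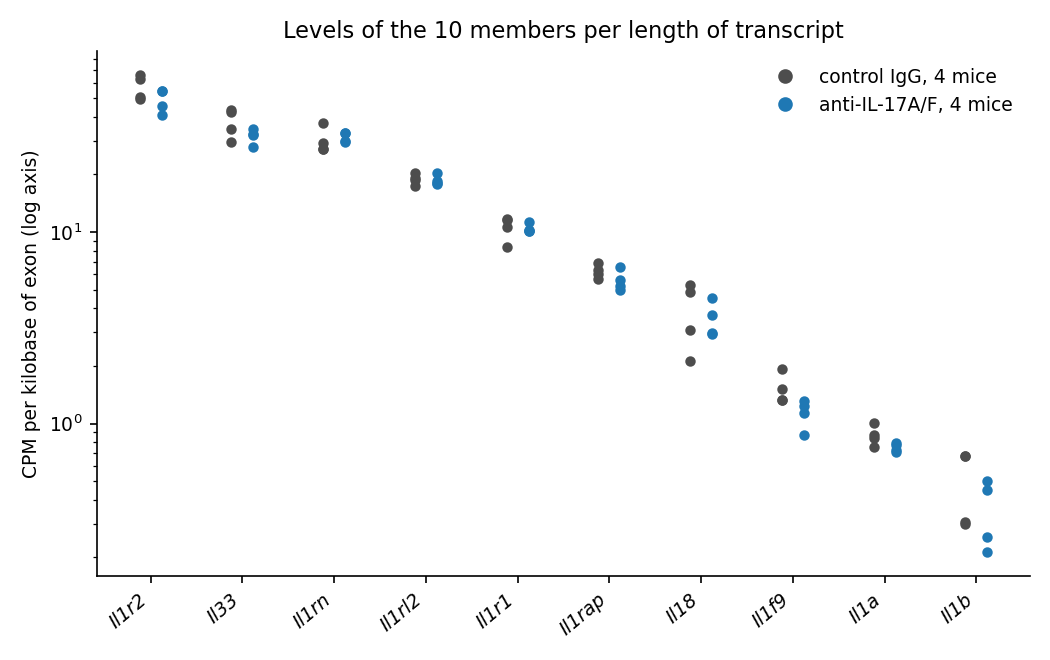
CPM per kilobase of exon (log axis) of the 10 members in each of the 8 mice, ordered by the mean over all mice. Control IgG and anti-IL-17A/F mice lie side by side for every member, and the means descend from 53.0 for Il1r2 to 0.422 for Il1b.

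The agonists are the ligands that start signaling. Il1f9 (chromosome 2, 24186476 to 24193567, GRCm38.p6) encodes IL-36γ, a keratinocyte cytokine known from psoriatic skin. Control mice 1 to 4 had 2.20, 2.20, 2.48 and 3.19 CPM, and anti-IL-17A/F mice 1 to 4 had 2.04, 1.44, 1.86 and 2.17 CPM. Every control mouse was thus above every treated mouse, but the nearest values of the groups were 2.197 and 2.168 CPM, and control mouse 4 stood highest and anti-IL-17A/F mouse 2 lowest.

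Il1f9 averaged 2.52 ± 0.467 CPM (SD, n = 4) in control mice, against 1.88 ± 0.316 CPM (SD, n = 4) under anti-IL-17A/F. On the log2 scale the fold change was -0.42 (SE 0.18, 95% interval -0.83 to -0.013), a ratio of 0.748. It had the 566th smallest p of all genes, with an unadjusted p of 0.044 and an adjusted p of 0.984 by edgeR. The value rested on 518 and 377 counts, and counting error alone accounts for a coefficient of variation of 9.45% per mouse.

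Each library was sequenced in 2 batches, which gives a repeat of the counting but not of the mice. Il1f9 had a log2 fold change of -0.54 (SE 0.22) in batch 1 and -0.24 (SE 0.19) in batch 2, where the groups overlapped. Leaving out control mouse 4 gave -0.29 and leaving out anti-IL-17A/F mouse 4 gave -0.50, and the groups also overlapped when levels were scaled by total counts.

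Il1a (chromosome 2, 129299609 to 129310186) encodes IL-1α, an alarmin that keratinocytes hold ready-made. Its levels were 1.98, 1.66, 1.72 and 1.49 CPM in control mice 1 to 4, against 1.56, 1.39, 1.53 and 1.43 CPM in treated mice 1 to 4. Control mouse 1 was the highest, and the lowest control mouse lay inside the treated group. A log2 fold change of -0.21 was estimated (SE 0.14, 95% interval -0.52 to 0.11), with an adjusted p of 0.984 by edgeR, and it was -0.13 without control mouse 1. Of the exon bases of Il1a, 11.2% overlap the opposite-strand gene Gm14023. No source used here says whether reads were assigned by strand, so how many counts of Il1a could stem from Gm14023 is not known.

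Il1b (chromosome 2, 129364569 to 129371164) encodes IL-1β, which is made mainly by myeloid cells and is matured by caspase-1. It was the scarcest member, with 137 counts in the control group and 97 in the treated group. Control mice 1 to 4 had 0.416, 0.405, 0.917 and 0.919 CPM, and anti-IL-17A/F mice 1 to 4 had 0.679, 0.349, 0.608 and 0.290 CPM. Both groups split into a lower and a higher pair of mice and overlapped widely. The coefficient of variation between mice was 44.1% in the control and 39.6% in the treated group, where counting error alone gives 18.5%. The log2 fold change of -0.46 (SE 0.39, 95% interval -1.33 to 0.42, adjusted p 0.984 by edgeR) was within this spread, and moved to -0.67 when anti-IL-17A/F mouse 1 was left out and to -0.26 when control mouse 3 was.

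The starts of these 3 ligands, the least abundant members per kilobase, are shown because they differ in matches to the motifs marked. Only exact matches were marked, so related sequences were not counted. The sequences are RefSeq windows of build GRCm38.p6 that run from 250 bases before to 50 bases after an annotated start. Capitals mark TATAAA (searched on the given strand) and TGANTCA, an AP-1 site (both strands). The windows are chr2:24186226-24186525 (plus strand) for Il1f9, chr2:129309923-129310222 (minus strand) for Il1a and chr2:129371090-129371389 (minus strand) for Il1b.
Il1f9: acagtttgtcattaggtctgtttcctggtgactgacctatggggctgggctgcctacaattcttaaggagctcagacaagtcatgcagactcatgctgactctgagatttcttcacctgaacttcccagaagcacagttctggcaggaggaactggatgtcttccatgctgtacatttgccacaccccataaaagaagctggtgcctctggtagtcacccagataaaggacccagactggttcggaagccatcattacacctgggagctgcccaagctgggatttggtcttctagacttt
Il1a: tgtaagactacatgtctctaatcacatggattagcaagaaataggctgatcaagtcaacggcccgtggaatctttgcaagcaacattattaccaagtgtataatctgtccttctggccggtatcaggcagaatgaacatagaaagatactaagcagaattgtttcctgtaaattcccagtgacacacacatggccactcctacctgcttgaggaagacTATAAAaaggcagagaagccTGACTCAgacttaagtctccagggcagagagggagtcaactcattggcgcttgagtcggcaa
Il1b: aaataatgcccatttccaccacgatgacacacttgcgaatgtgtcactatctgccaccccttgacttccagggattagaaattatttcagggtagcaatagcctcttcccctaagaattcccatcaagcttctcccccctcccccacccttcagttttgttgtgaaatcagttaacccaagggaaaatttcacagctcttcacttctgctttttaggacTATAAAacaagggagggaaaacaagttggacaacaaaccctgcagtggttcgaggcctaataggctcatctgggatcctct

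TATAAA lay 32 bases before the start in Il1a and 31 before it in Il1b, and TGACTCA lay 12 before the start in Il1a. Neither motif was found in the Il1f9 window. Of 32841 such windows over all genes 8.32% hold TATAAA and 7.81% hold TGANTCA. All 10 members had a window, 14 in all. TATAAA was also found in both windows of Il33, at 203 and 29 bases before their starts, TGAGTCA in 1 window of Il1rn, at 141, and a match to the NF-κB consensus, present in 4.51% of all windows, only in 1 window of Il1r1. These matches describe letters and not binding.

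Il33 (chromosome 19, 29925113 to 29960718) encodes IL-33, a nuclear alarmin of barrier cells. It was at 77.3, 112.9, 109.7 and 90.0 CPM in control mice 1 to 4, against 83.5, 84.7, 89.8 and 72.3 CPM in treated mice 1 to 4. Control mice 2 and 3 exceeded all treated mice, control mouse 4 narrowly did, and control mouse 1 lay within the treated group. The fold change on the log2 scale was -0.24 (SE 0.12, 95% interval -0.51 to 0.034), with an unadjusted p of 0.079 and an adjusted p of 0.984 by edgeR. Leaving out control mouse 1 gave -0.33, and leaving out control mouse 2 gave -0.16.

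Il18 (chromosome 9, 50554700 to 50581841) encodes IL-18, which like IL-1β is matured by caspase-1. Control mice 1 to 4 had 3.17, 2.18, 5.01 and 5.45 CPM, and anti-IL-17A/F mice 1 to 4 had 3.05, 4.65, 3.79 and 3.02 CPM. The control mice held both the lowest and the highest values, so that the treated mice all lay between them. Il18 thus had a log2 fold change of -0.13 (SE 0.29, adjusted p 0.984 by edgeR), and it changed sign without control mouse 3 (0.0092) and without control mouse 4 (0.070).

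Il1rn (chromosome 2, 24336860 to 24351491), which encodes the antagonist that blocks the IL-1 receptor, was the only member with a higher mean under anti-IL-17A/F. Its levels were 73.4, 79.1, 100.1 and 73.3 CPM in control mice 1 to 4, against 89.1, 81.1, 80.1 and 88.9 CPM in treated mice 1 to 4. Control mouse 3 exceeded all treated mice, and the other control mice lay below all of them. For Il1rn the log2 fold change was 0.058 (SE 0.0999, adjusted p 0.984 by edgeR) and 0.17 (SE 0.058) without control mouse 3, with an adjusted p of 0.858 by edgeR.

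The decoy receptor Il1r2 (chromosome 1, 40084692 to 40125230) had 69.8, 72.1, 94.1 and 88.8 CPM in control mice 1 to 4, against 64.6, 57.7, 76.9 and 77.4 CPM in treated mice 1 to 4. In each group mice 3 and 4 were higher than mice 1 and 2, and the groups overlapped. Il1r2 had a log2 fold change of -0.23 (SE 0.12, 95% interval -0.51 to 0.050), with an unadjusted p of 0.096 and an adjusted p of 0.984 by edgeR. It ranged from -0.29 to -0.15 when 1 mouse at a time was left out, the value nearest 0 being that without control mouse 3.

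Of the receptors that signal, Il1r1 (chromosome 1, 40222480 to 40316201), which binds IL-1α and IL-1β, was at 51.3, 71.4, 70.6 and 65.1 CPM in control mice 1 to 4, against 68.9, 62.2, 62.5 and 62.0 CPM in treated mice 1 to 4. Control mouse 1 was the lowest of all 8. For Il1r1 the log2 fold change was -0.017 (SE 0.099, 95% interval -0.24 to 0.21, adjusted p 0.995 by edgeR) and -0.11 without control mouse 1, and it was above 0, at 0.012, with total counts.

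Il1rl2 (chromosome 1, 40324589 to 40367555), the receptor of the IL-36 cytokines, varied least of the members, by a factor of 1.17 from the lowest to the highest mouse. It had 70.1, 75.2, 82.4 and 77.0 CPM in control mice 1 to 4, against 81.9, 73.2, 72.4 and 74.8 CPM in treated mice 1 to 4, and the groups overlapped over nearly their whole range. The log2 fold change was -0.011 (SE 0.061, adjusted p 0.994 by edgeR), turning to 0.016 with total counts. Its 95% interval, -0.15 to 0.13, was the narrowest of the 10 members.

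Il1rap (chromosome 16, 26581509 to 26730128), the accessory chain shared by the IL-1, IL-36 and IL-33 receptors, was at 48.8, 54.5, 59.1 and 51.6 CPM in control mice 1 to 4, against 45.2, 43.0, 48.4 and 56.5 CPM in treated mice 1 to 4. Mice 1 to 3 of the treated group were below all control mice, and mouse 4 was above all control mice but 1. The log2 fold change was -0.15 (SE 0.092, adjusted p 0.984 by edgeR), -0.23 when anti-IL-17A/F mouse 4 was left out and -0.096 when control mouse 3 was. Of its exon bases 4.10% overlap the opposite-strand gene Gm20319.

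**Figure D3:**
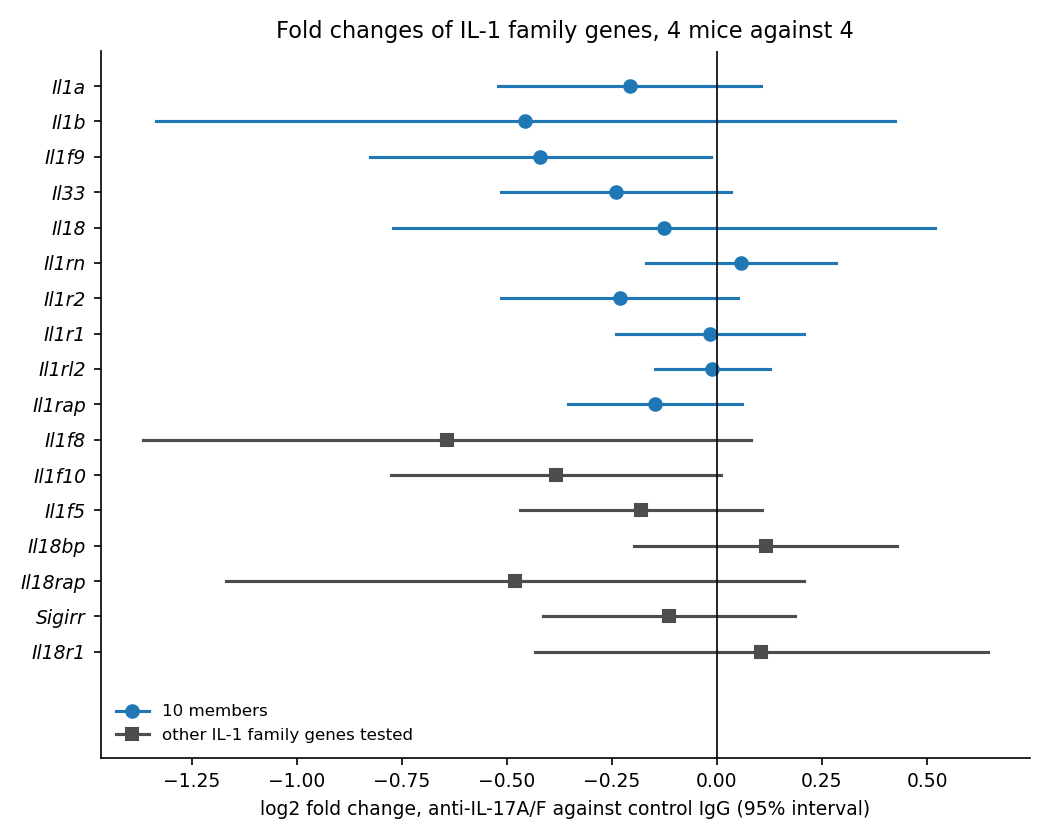
Log2 fold change of anti-IL-17A/F against control IgG with its 95% interval from edgeR, for the 10 members (blue circles) and 7 further tested genes of the family (gray squares). The interval of Il1f9, -0.83 to -0.013, is the only one shown that does not reach 0, and no gene passed after adjustment.

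Antagonist and decoy transcripts were set against their agonist or signaling partner within each mouse, as a log2 ratio of CPM per kilobase. Il1rn to Il1a stood at 5.11 ± 0.269 in control and 5.38 ± 0.102 in treated mice, and Il1rn to Il1b at 6.04 ± 0.605 and 6.55 ± 0.611 (SD, n = 4 each). Per kilobase the decoy Il1r2 exceeded the signaling receptor Il1r1 in every mouse, by 2.44 ± 0.211 on this scale in control and 2.21 ± 0.237 in treated mice. This excess rests largely on the exon lengths, 1.419 kb for Il1r2 and 6.115 kb for Il1r1. In CPM, Il1r1 was above Il1r2 in anti-IL-17A/F mice 1 (68.9 against 64.6) and 2 (62.2 against 57.7). In all other mice it was below. In the IL-36 branch, the ratio of the antagonist Il1f5 to the agonist Il1f9, chosen after seeing the data, was 2.72 ± 0.198 (SD, n = 4) in control mice against 2.94 ± 0.220 (SD, n = 4) in treated mice. The groups overlapped in all 4 of these ratios. Il1rn acts on the IL-1 receptor and not on that of IL-36. Its ratio to Il1f9 was between 3.81 and 4.62 in control and between 4.64 and 5.10 in treated mice. These groups did not overlap, with nearest values of 4.617 and 4.642, but Il1f9 alone had no overlap either. None of the ratios was tested.

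The other ligands of the family were measured too. Of 5 genes 4 were tested, 3 had lower means and 1 a higher mean, none passed, and their median log2 fold change was -0.28. Il1f10, which encodes IL-38, had 0.793 ± 0.0776 CPM in control and 0.606 ± 0.0765 CPM in treated mice (log2 fold change -0.38, SE 0.17). Il1f8, the gene of IL-36β, had 0.511 ± 0.133 and 0.326 ± 0.133 CPM (-0.64, SE 0.32). Il1f5, which encodes the IL-36 receptor antagonist, had a log2 fold change of -0.18 (SE 0.13), and Il18bp, a soluble inhibitor of IL-18, one of 0.12 (SE 0.14). Both the agonist Il1f8 and the antagonist Il1f5 of the IL-36 branch thus had lower means. Il1f6 was below the filter.

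Of 6 further receptors of the family 3 were tested and none passed, with a median log2 fold change of -0.12. The IL-18 receptor chains Il18rap and Il18r1 had log2 fold changes of -0.48 (SE 0.30) and 0.11 (SE 0.24), and Sigirr, an inhibitory receptor, had -0.12 (SE 0.13). Il1rl1, which encodes the IL-33 receptor ST2, was below the filter, with 30 counts over the control and 16 over the treated mice. Its mean over 8 mice was 0.0166 CPM per kilobase, where its ligand Il33 had 34.5. Il1rapl1 and Il1rapl2 were also below the filter.

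Among the genes acting next to the receptors, all 14 were tested, 11 had lower means and 3 higher means, none passed, and the median log2 fold change was -0.061. Irak3, an inhibitor of signaling from the IL-1 receptor complex, had 24.5 ± 2.68 CPM in control and 20.6 ± 1.27 CPM in treated mice, a log2 fold change of -0.25 (SE 0.086) with an unadjusted p of 0.017 and an adjusted p of 0.984 by edgeR. The ubiquitin ligase Peli3 had -0.13 (SE 0.082) and no overlap between the groups, Myd88, the shared adaptor, -0.13 (SE 0.089), and Peli1 -0.057 (SE 0.039).

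Genes that process or release IL-1 family ligands gave 16 tested of 21, with 10 lower and 6 higher means, none passing and a median log2 fold change of -0.033. Gsdma, a pore-forming gasdermin of the epidermis, had -0.17 (SE 0.065, unadjusted p 0.026 and adjusted p 0.984 by edgeR), and the channel gene Panx1 -0.066 (SE 0.062). Ctss, a protease gene active in antigen-presenting cells, had -0.40 (SE 0.34). Gsdma2 had -0.80 (SE 0.73), with control mouse 4 at 0.899 CPM and the other 7 mice at or below 0.226 CPM. Nlrp1a, Nlrp3, Nlrc4, Ctsg and Elane were below the filter.

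Genes that keratinocytes are known to induce on IL-1 or IL-36 gave 14 tested of 20, of which 9 had lower and 5 higher means, none passed, and the median log2 fold change was -0.22. Lcn2, an antimicrobial protein gene, was at 0.396, 0.385, 0.306 and 0.880 CPM in control mice 1 to 4 and at 0.245, 0.186, 0.235 and 0.310 CPM in treated mice 1 to 4. The log2 fold change of Lcn2 was -0.99 (SE 0.37, unadjusted p 0.025 and adjusted p 0.984 by edgeR), on 101 and 49 counts. Zc3h12a, which encodes an RNase that restrains cytokine transcripts, had -0.46 (SE 0.20), Nfkbiz, a transcriptional regulator downstream of IL-17 and IL-36, -0.36 (SE 0.25), and the cytokine gene Csf2 -0.54 (SE 0.42). Cxcl2, Il6, Csf3, Saa3, Defb4 and Vcam1 were below the filter.

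Mouse by mouse, control mouse 3 was above the mean of the 8 mice for 10 of 10 members and the highest for 4 of them. Control mouse 4 was above the mean for 8 and the highest for 3, whereas control mouse 1 was above it for only 2. In the treated group, anti-IL-17A/F mouse 2 was the lowest of all mice for 4 members and above the mean for 1. The highest value of each of the 10 members was found in a control mouse, and so was the lowest value of 4 members.

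Markers of other cells were not even across these mice. All 8 Langerhans and dendritic cell genes were detected, and they summed to 159, 204, 503 and 432 CPM in control mice 1 to 4, against 293, 233, 285 and 188 CPM in treated mice 1 to 4. Of 10 macrophage and monocyte genes 9 passed the filter, none was at 0 in all mice, and the list summed to between 17.3 and 36.8 CPM in control and between 17.5 and 23.5 CPM in treated mice. Control mice 3 and 4 were the highest of all mice in both lists, as they were for Il1b, Il18, Il1f9 and Il1r2. The part of these cells in the levels of the members was not tested.

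The 9 T cell genes, all detected, summed to between 171 and 262 CPM in control and between 167 and 233 CPM in treated mice. The 10 immediate-early and heat shock genes, which respond to handling of tissue, summed to 5122, 8624, 13575 and 11127 CPM in control mice 1 to 4, against 6544, 5124, 10531 and 8533 CPM in treated mice 1 to 4. Control mouse 3 was again the highest, and the lowest values were those of control mouse 1 and anti-IL-17A/F mouse 2. Nfkbiz, the NF-κB regulator, was at 80.4, 138.9, 190.7 and 172.3 CPM in control mice 1 to 4, against 104.9, 84.9, 128.3 and 135.7 CPM in treated mice 1 to 4, so control mouse 3 led there too. The part of handling genes and T cells in the values of Nfkbiz and of the members was not tested.

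**Figure D4:**
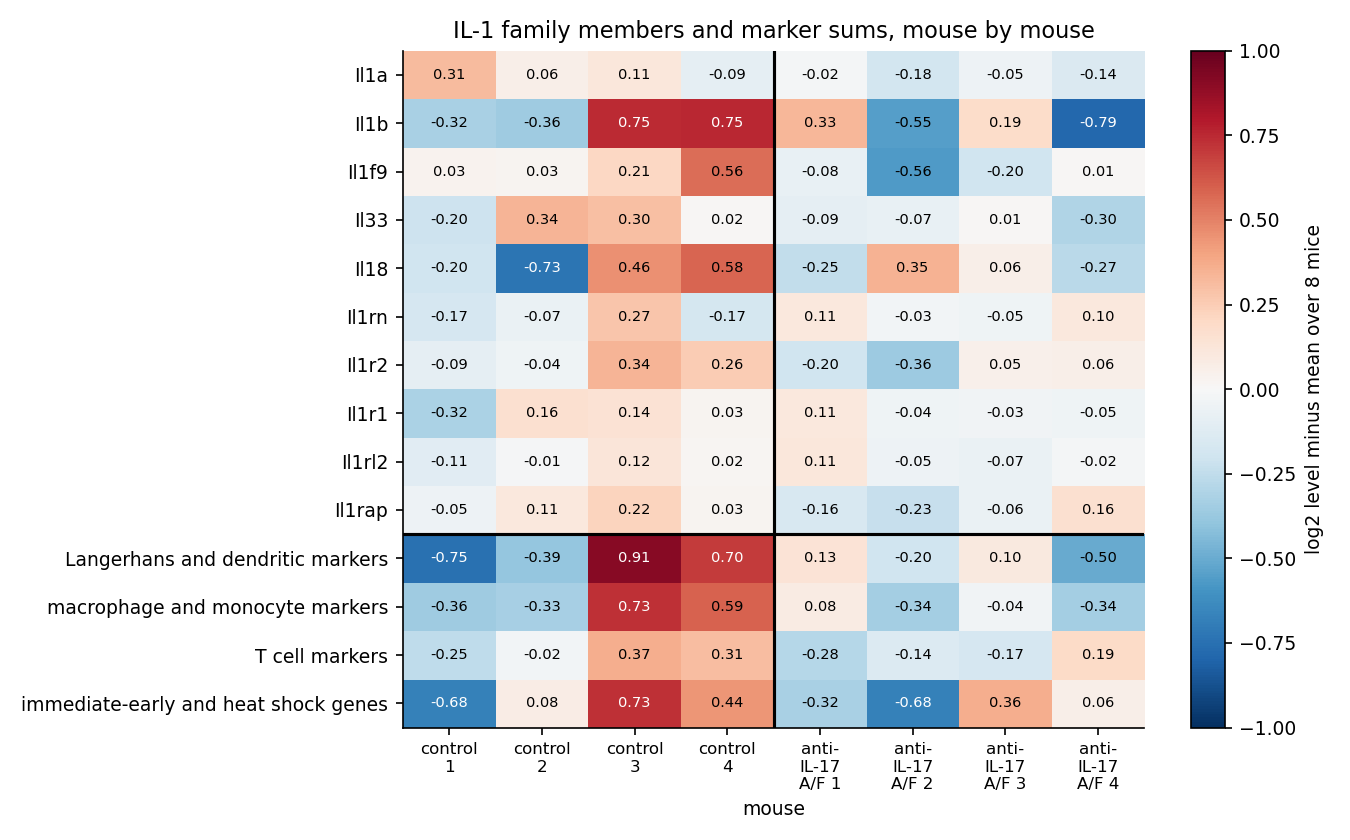
Log2 level of each member (top) and of 4 summed marker lists (bottom) in each mouse, minus the mean over the 8 mice. Control mouse 3 is above the mean in every row, and control mice 3 and 4 have 0.75 for Il1b beside 0.91 and 0.70 for the Langerhans and dendritic markers.

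Across the 8 mice, which share library preparation and sequencing, members differed in what they moved with. The highest correlations of log2 CPM between members were those of Il1r2 with Il1rap (r = 0.82), Il1r2 with Il1f9 (r = 0.81) and Il1r1 with Il1rl2 (r = 0.78). Among 14075 other genes averaging at least 1 CPM, the 3 most like Il1f9 were Wnt16, Gm5576 and Sema4c (r = 0.96, 0.96 and 0.95), and the 3 most like Il1a were Aloxe3, Dad1 and Ralgds (r = 0.94, 0.92 and 0.92). Those most like Il33 were Rnf4, Fam83g and Ago4 (r = 0.99, 0.98 and 0.98). Il1b, set against 14076 genes, was most like H2-M5, Hlx and Uimc1 (r = 0.96, 0.95 and 0.95). These are descriptions over 8 points, with the best match picked from many genes.

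**Figure D5:**
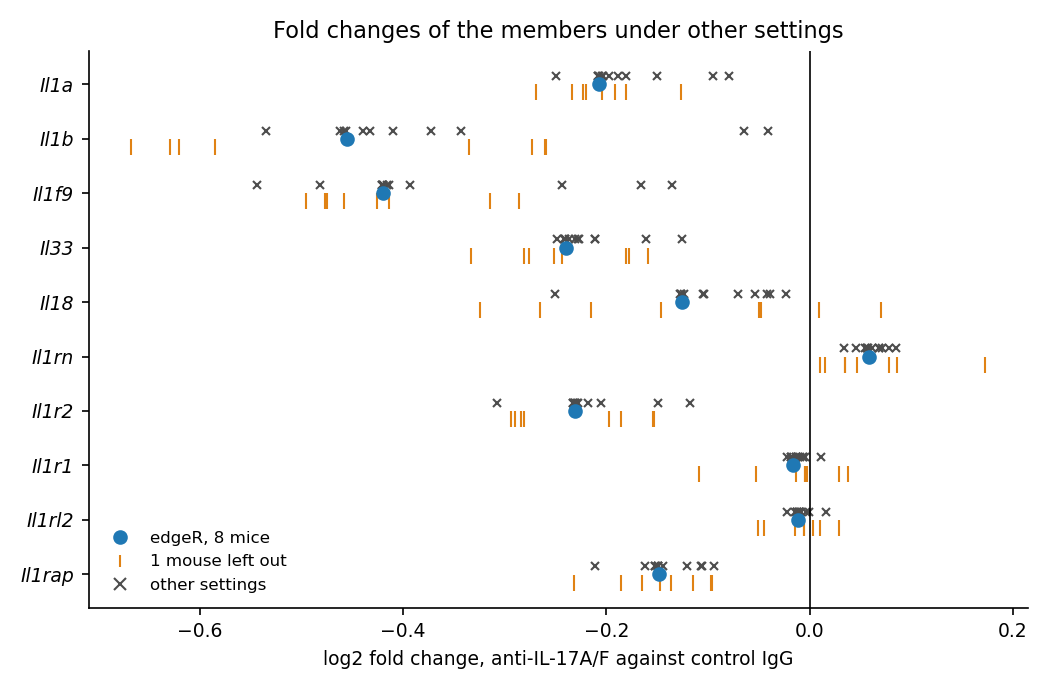
Log2 fold change of each member by edgeR over all 8 mice (blue), with 1 mouse left out (orange) and under the other settings tried (crosses, which include shrunken estimates nearer to 0). Il1a, Il1b, Il1f9, Il33, Il1r2 and Il1rap are below 0 in every setting shown, Il1rn is above 0, and Il18, Il1r1 and Il1rl2 fall on both sides.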

How the data were processed

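Bulk mRNA-seq libraries (stranded poly(A) protocol, single-end reads) were made from epidermal cells of 8 mice, and each library was sequenced in 2 batches. The authors aligned the reads to mm10 with STAR 2.5.2b and deposited raw counts per Entrez gene from featureCounts, in which a read over several genes counted for each and multi-mapping reads did not count. The 2 runs of a mouse agreed within sampling noise and were summed, so that replicates are 4 mice per group.

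Groups were compared with edgeR 4.0.16 in R 4.3.3 (TMM, filterByExpr with a minimum count of 10 and a minimum total of 15, quasi-likelihood test), with Benjamini-Hochberg adjustment over all 16335 genes tested and calls below 0.1, the level of the study. CPM are counts relative to the TMM-scaled total of the mouse. For correlations a prior count of 2 was added. DESeq2 1.42.0, limma 3.58.1, other scalings and filters, single batches, a replicate block and leaving out each mouse were alternatives. Exon lengths came from GENCODE (basic set, GRCm38), gene positions and promoter windows from RefSeq (GRCm38.p6).

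The members and lists were chosen with earlier results of these data known. Named were all members, up to 4 genes of each other pathway list by smallest unadjusted p, its genes below the filter, and the 3 genes most like each of Il1a, Il1b, Il33 and Il1f9. One ratio, of Il1f5 to Il1f9, was added after seeing the data. Intervals cover the spread between mice, and counting errors assume independent reads.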

Additional observations from a re-analysis of the deposited data

Results flagged for a closer look

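Il1r1 in the anti-IL-17A/F mice had 1 mouse far from the rest. Mouse 1 was at 68.9 CPM and the other 3 were between 62.0 and 62.5 CPM, so that the gap took 0.927 of the range of the group, above Dixon's 95% critical value for 4 samples. In all, 20 groups (10 members in 2 groups) were looked at in this way, and chance alone flags about 1 in 20.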

How the results depend on the processing

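No member was called under any of the alternatives run, though Il1a and Il1b had no adjusted p by DESeq2 on the 8 mice. Over all genes, edgeR and limma-voom called 0, and DESeq2 on the 8 mice called 11 by the Wald test and 0 with the thresholds of the study, and 11 with those thresholds, batch as a term and the 16 runs entered apart. Genes at an unadjusted p below 0.05 numbered 658 by edgeR, 1099 by limma-voom and 2261 by DESeq2 with the 16 runs apart. The count of members without overlap between the groups was 0 with total counts and 0 in sequencing batch 2, and between 1 and 2 when 1 mouse was left out. The share over all genes is not given for these settings. With 1 mouse fewer, values without overlap arise more readily, so those counts cannot be set against the 2.42% of all genes over 8 mice. With total counts Il1r1 turned to 0.012 and Il1rl2 to 0.016. With 1 mouse left out, 3 members reversed in at least 1 case: Il18 ranged from -0.32 to 0.070, Il1r1 from -0.11 to 0.038 and Il1rl2 from -0.050 to 0.029. The cause was not tested. The other 7 members kept their direction in every alternative run, though Il1b could not be tested with a filter of at least 1 CPM on average. The median log2 fold change of the members was between -0.20 and -0.12 with 1 mouse left out, and between -0.20 and -0.060 under the other settings.

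Mice with the same replicate number had deviations with correlations of -0.27, 0.25, 0.19 and -0.14, and 2 of 4 correlated best with their own number. So few values of mixed sign cannot settle whether the numbers mark pairs. With the replicate block, edgeR called 0 genes and 0 members, and 3 members instead of 1 had an unadjusted p below 0.05: Il1r2 (-0.23, SE 0.052, p 0.0042), Il1f9 (-0.42, p 0.029) and Il33 (-0.23, p 0.047), each with an adjusted p of 0.983. Over all 16335 genes tested, 632 were below that level with the block and 658 without it. Depth limits Il1b most, with 234 counts over all mice, and Il1f9 and Il1a, with 895 and 647. An exact permutation test over 70 assignments cannot give a p below 0.0286.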

Other observations

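Most family genes lie in clusters, and neighbors within a cluster had very different levels. On chromosome 1, along GRCm38.p6, the receptor genes follow each other from Il1r2 (start 40084692) through Il1r1, Il1rl2, Il1rl1 and Il18r1 to Il18rap (start 40515362). Their means over the 8 mice were, in this order, 53.0, 10.5, 18.8, 0.0166, 3.36 and 0.205 CPM per kilobase of exon. Il1rl1, which encodes the IL-33 receptor, was the lowest of the 6, between Il1rl2 and Il18r1, which were both well expressed.

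On chromosome 2 the IL-36 and antagonist genes run from Il1f8 (start 24153172) through Il1f9, Il1f6, Il1f5 and Il1f10 to Il1rn (start 24336860). Their means were, in this order, 0.344, 1.33, 0.0335, 9.38, 1.30 and 30.7 CPM per kilobase. The receptor antagonists Il1f5 and Il1rn thus stood above the agonists Il1f8, Il1f9 and Il1f6. Il1f10, which was put in neither class here, stood at 1.30, near Il1f9 at 1.33.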
